A study of Homo sapiens with 12 samples.

Results

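The genes described here are 10 members of the BCL-2 family, the proteins that decide whether the outer mitochondrial membrane is opened during apoptosis. They were chosen by name, as every entry of the sgRNA count table whose gene was BAX, BAK1, BCL2L11, BMF, BBC3, PMAIP1, BID, BCL2L1, MCL1 or BCL2. This gave 60 sgRNAs, 6 per gene, of 123411 sgRNA entries and 20915 gene names in the table. BAX and BAK1 are the effectors, which form the pores that release cytochrome c. BCL2L11 (the protein BIM), BMF, BBC3 (PUMA), PMAIP1 (NOXA) and BID are BH3-only proteins, which carry the death signal. BCL2L1 (BCL-XL), MCL1 and BCL2 are guardians, which hold both other classes in check. In HER2-driven epithelial cells, blocking the receptor is known to raise BIM and BMF, and MAPK signalling is known to mark BIM for degradation.

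The study was a pooled knockout screen for resistance to lapatinib, a kinase inhibitor of EGFR and HER2, in N87 and OE19, established human cancer lines with amplified HER2. Cells received the GeCKO V2 library, a lentiviral pool made as sub-libraries A and B in which each vector carries Cas9 and a single sgRNA, so the share of reads of an sgRNA tracks the share of cells with that gene cut. Each line was sampled in 3 conditions: baseline, after puromycin selection for 7 days, vehicle (DMSO) for a further 14 days, and lapatinib for the same 14 days. N87 was treated with 0.5 µM and OE19 with 1 µM, so line and dose cannot be told apart in any comparison between the lines. There were 2 libraries per condition, 12 in all, from separate infections, and no untransduced cells or plasmid pool were analysed here. Library totals ran from 13105805 to 33743599 reads. The OE19 lapatinib libraries were the shallowest, with a median of 57 and 94 reads per sgRNA against 120 to 238 in the 10 others. A count reports cells that carry a guide, whether or not the cut removed the protein, and slower growth and cell death cannot be told apart. The guides' target sequences and positions are not in the table, so sgRNAs are given by their library names.

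Abundance is given as the normalized count (reads divided by a median-of-ratios size factor). A gene's level is the mean log2 normalized count of its 6 sgRNAs minus the same mean for the control guides, which target no gene. A gene's change is the median of the log2 fold changes fitted to its guides, with their SD, which share a target and are not replicates. A gene was called enriched or depleted at an adjusted p under 0.05, from rank aggregation of the edgeR p-values of its sgRNAs, adjusted over all genes tested.

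With lapatinib in OE19, sgRNAs against BAX and BMF were enriched over vehicle, and those against BCL2L11 were enriched over baseline. The sgRNAs of BCL2L1 were depleted against baseline. No other member was called in these comparisons, and none was called in N87 with lapatinib against vehicle or baseline. Of 20890 genes tested in OE19 against vehicle, 20 (0.0957%) were enriched and 0 (0%) were depleted, and 2 of the 10 members were enriched, a count that fell to 0 without either vehicle library. The members were chosen with such results known, so the shares are a description. Before adjustment 1121 genes had a p for depletion under 0.05, BCL2L1 among them, and DESeq2 p-values also gave 0 depleted genes. At the level of single sgRNAs, 13 of the 60 (21.7%) were higher with lapatinib in OE19, where 2.33% of all sgRNAs were. These were 5 of BAX, 3 of BMF, 3 of BCL2L11 and 1 each of BBC3 and BAK1. A further 2 of the 60 (3.33%) were lower, against 0.0795% of all sgRNAs, and both target BCL2L1.

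**Figure D1:**
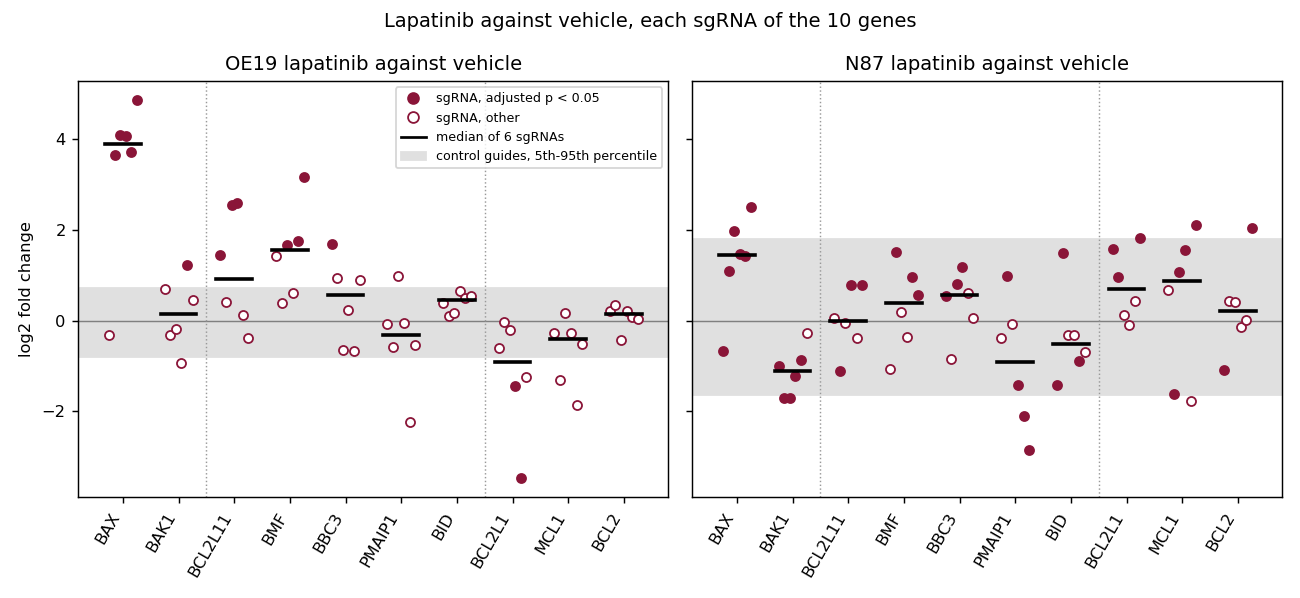
Log2 fold change of each of the 60 sgRNAs with lapatinib against vehicle, in OE19 (left) and N87 (right), by gene; dotted lines part effectors, BH3-only proteins and guardians, filled points have an adjusted p under 0.05, bars are medians and the grey band holds the middle of the control guides. In OE19 5 BAX sgRNAs stand at 3.67 to 4.87 while the control guides run from -0.80 to 0.71; in N87 the control band itself runs from -1.65 to 1.81 and holds most points.

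BAX (chromosome 19 of GRCh37, 49458072 to 49465055) had the largest change of the 10 genes in OE19. Its level was 0.54 and 0.54 in the baseline libraries, 0.41 and 0.49 under vehicle, and 4.22 and 3.47 with lapatinib. Both lapatinib libraries lay far above the 4 other OE19 libraries. The sgRNA of largest fold, HGLibB_04181, held normalized counts of 269 and 303 at baseline, 243 and 225 under vehicle, and 9535 and 4393 with lapatinib. All 6 BAX sgRNAs together took 67.5 and 69.7 RPM (reads scaled to each library total) under vehicle and 824 and 573 with lapatinib. The mean of HGLibB_04181 rose 29.7-fold over vehicle, and the other 4 sgRNAs that passed rose 12.9- to 17.4-fold. Lapatinib replicate 1 was the higher library for each of these 5 sgRNAs. The median change over vehicle was 3.90 ± 1.85 (SD over 6 sgRNAs, adjusted p = 0.000340 from rank aggregation), the third highest of 20913 gene medians. Over baseline it was 4.05 ± 1.74, with an adjusted p of 2.94e-05, where 0.124% of genes were enriched.

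The sixth BAX sgRNA, HGLibA_04181, held 192 and 193 at baseline in OE19, 235 and 221 under vehicle, and 204 and 171 with lapatinib. It was not higher, with a log2 change over vehicle of -0.31 and an adjusted p of 0.600. In N87 the same sgRNA held 202 and 277 under vehicle and 153 and 160 with lapatinib, a change of -0.66 with an adjusted p of 0.0260. It was the only BAX sgRNA that was not higher with lapatinib, in either line.

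**Figure D2:**
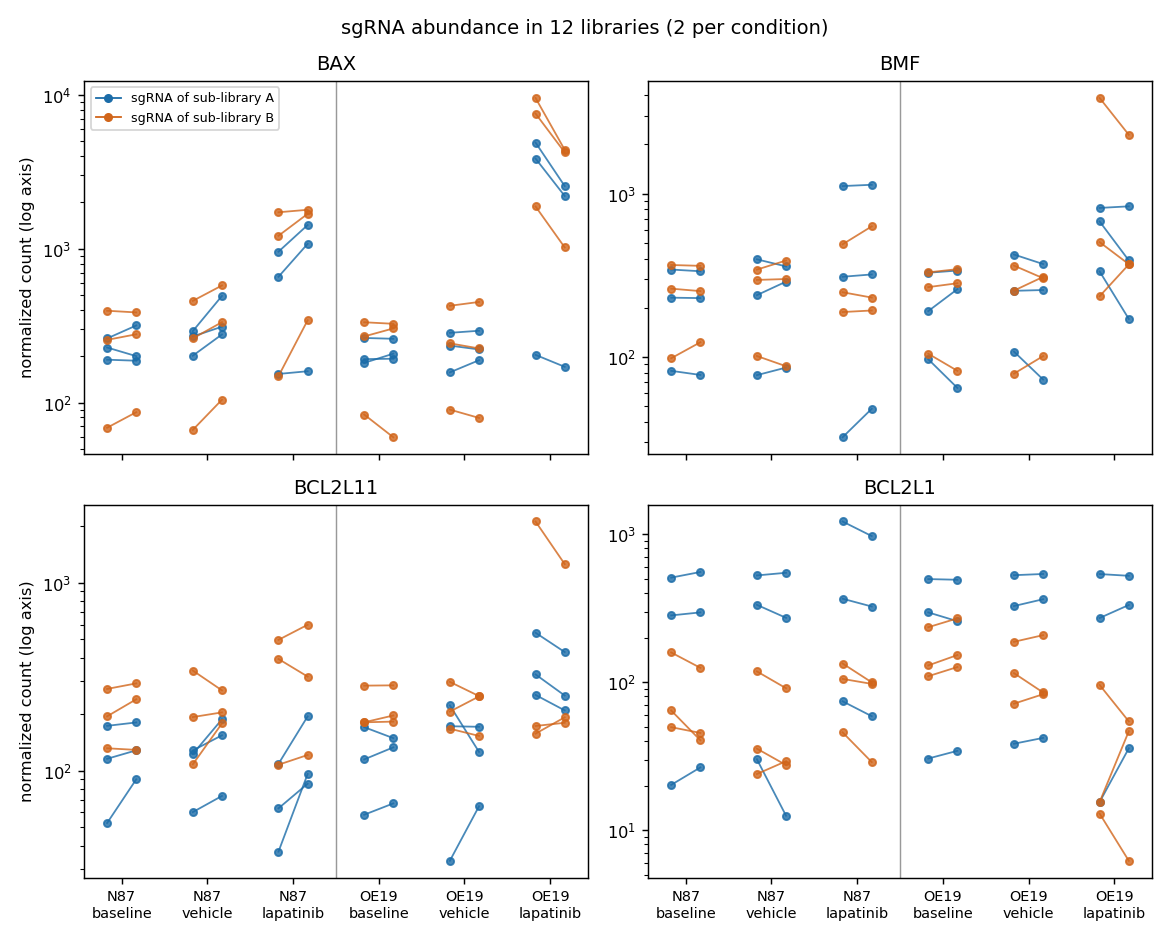
Normalized counts (log axis) of the 6 sgRNAs of BAX, BMF, BCL2L11 and BCL2L1 in the 12 libraries; each short line joins the 2 libraries of a condition for 1 sgRNA, coloured by sub-library. With lapatinib 5 BAX sgRNAs rise in both lines and HGLibA_04181 stays between 153 and 204, while in OE19 the 3 sub-library B guides of BCL2L1 lie below their vehicle values.

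In N87 the BAX level was 0.57 and 0.62 at baseline, 0.60 and 1.01 under vehicle, and 1.66 and 2.15 with lapatinib, again without overlap between lapatinib and the rest. The same 5 sgRNAs were higher with lapatinib, by 2.21- to 5.90-fold, and the median change was 1.46 ± 1.09. The gene was not called, with an adjusted p for enrichment of 1.00, where 3 of 20885 genes (0.0144%) passed in either direction. No member had an unadjusted gene p under 0.05 in N87 against vehicle, where 10.1% of all genes did, and DESeq2 p-values called 0 members. With counts summed per gene BAX passed (adjusted p = 5.81e-05), in a fit that called 32.3% of all genes enriched and 32.2% depleted. In that fit 5 members were enriched and 3 depleted. MCL1 was at 1.23 (7.59e-07), BAX at 1.20 and BAK1 at -1.55 (1.43e-06). N87 sgRNAs passed singly far more often than in OE19: 31.2% of all were higher and 29.9% lower, and 52.3% of the control guides passed in one direction or the other. The 22 of 60 member sgRNAs that were higher (36.7%) and the 14 that were lower (23.3%) are near these shares. With scaling to total counts they were 13 and 25, a setting for which the share of all sgRNAs is not given. The control guides had a median normalized count of 215 and 202 in the N87 lapatinib libraries against 148 to 162 in the 4 other N87 libraries, so N87 levels given relative to these guides include that difference. Against baseline, where 0.134% of genes passed, the BAX median in N87 was 1.73 ± 1.15 (adjusted p = 0.946).

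The 6 BAX sgRNAs kept their order between the lines. Their log2 changes over vehicle in OE19 and N87, which share no library, had Pearson's r = 0.965 and Spearman's rho = 1 over 6 sgRNAs. Without HGLibA_04181, r was 0.937 over 5. For the other 9 genes r ran from -0.590 (BID) to 0.841 (MCL1), with BAK1 at 0.550 and BMF at -0.0160, and over all 60 member sgRNAs it was 0.362. These are descriptions over guides that share a target, with no test.

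BAK1 (chromosome 6, 33540324 to 33548070), the other effector, was not called in any comparison. Its level in OE19 was 0.23 and 0.35 at baseline, -0.03 and -0.11 under vehicle, and 0.26 and 0.11 with lapatinib, so the lapatinib libraries lay between or near the baseline and vehicle values. The OE19 median over vehicle was 0.14 ± 0.78, and its sign turned under another scaling. A single sgRNA, HGLibB_04132, was higher (log2 change 1.22, adjusted p = 0.0386). It held normalized counts of 195 and 196 under vehicle and 579 and 355 with lapatinib. In N87 the level was 0.23 and 0.33 at baseline, 0.27 and 0.33 under vehicle, and -1.26 and -0.84 with lapatinib. There 5 of its 6 sgRNAs were lower with lapatinib, where 29.9% of all sgRNAs were. The median was -1.12 ± 0.55, number 1905 from the lowest of 20912 gene medians, with an adjusted p for depletion of 0.972. HGLibA_04134 showed the pattern, at 210 and 209 under vehicle and 56.9 and 76.9 with lapatinib.

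**Figure D3:**
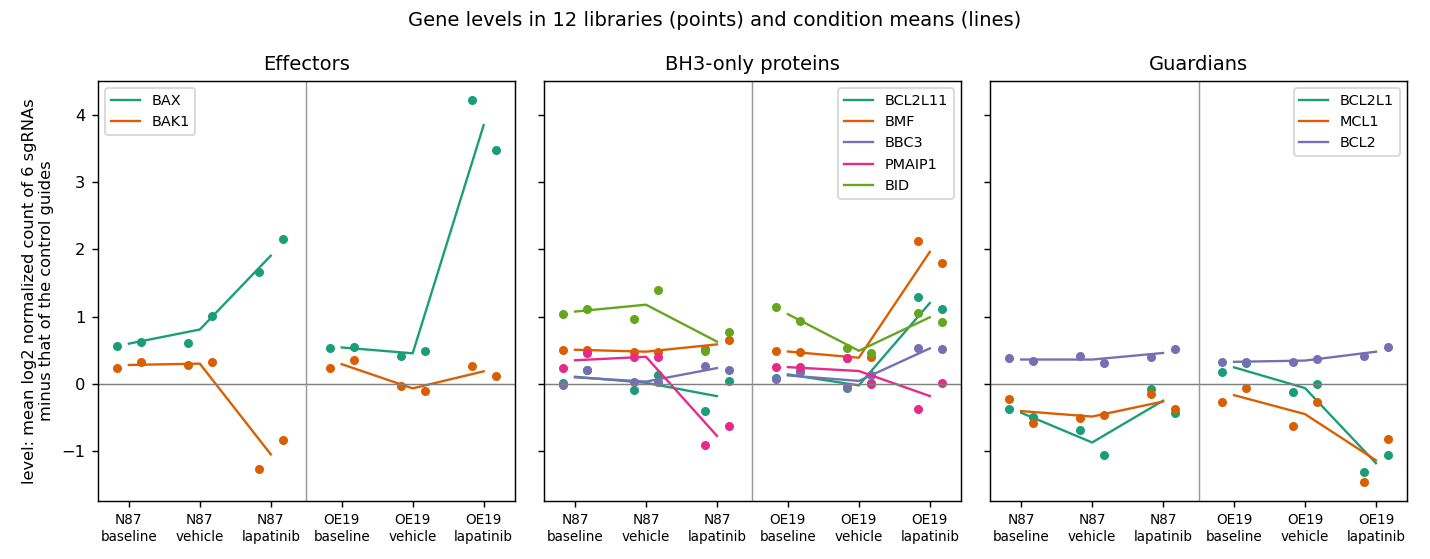
Level of each gene (mean log2 normalized count of its sgRNAs minus that of the control guides) in the 12 libraries, as points, with condition means as lines, by role. BAX reaches 4.22 and 3.47 in OE19 lapatinib and 1.66 and 2.15 in N87 lapatinib, while BCL2L1 and MCL1 reach their lowest levels in OE19 lapatinib.

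Among the BH3-only proteins, BMF and BCL2L11 each had 3 sgRNAs that rose with lapatinib in OE19, and BMF alone was called against vehicle. BMF (chromosome 15, 40380091 to 40401093) senses loss of attachment and of growth factor signals and binds the guardians. Its level in OE19 was 0.49 and 0.47 at baseline, 0.38 and 0.39 under vehicle, and 2.12 and 1.80 with lapatinib. The lapatinib libraries stood apart from the 4 others. The median change over vehicle was 1.55 ± 0.99 (adjusted p = 0.0293), the 17th highest gene median, and all 6 sgRNAs had a positive change, from 0.39 to 3.18. The strongest, HGLibB_04583, held 362 and 303 under vehicle and 3847 and 2290 with lapatinib, a 9.20-fold gain. Over baseline the median was 1.66 ± 0.93, with an adjusted p of 0.0203. In N87 BMF held a level of 0.51 and 0.50 at baseline, 0.48 and 0.48 under vehicle, and 0.52 and 0.65 with lapatinib. The N87 median over vehicle was 0.38 ± 0.93, with an adjusted p of 1, and its sign turned under another scaling.

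BCL2L11 (chromosome 2, 111876955 to 111926021), the gene of BIM, neutralises all guardians and can activate BAX directly. In OE19 its level was 0.09 and 0.19 at baseline, -0.06 and 0.01 under vehicle, and 1.29 and 1.12 with lapatinib, with no overlap. The gain lay in 3 of the 6 sgRNAs. HGLibB_04305 went from 297 and 250 under vehicle to 2121 and 1258 with lapatinib, a 6.16-fold gain. HGLibA_04309 rose 5.80-fold and HGLibA_04307 2.77-fold, while the other 3 sgRNAs had log2 changes from -0.38 to 0.40 that did not pass. The median over vehicle was 0.92 ± 1.28 and missed the threshold (adjusted p = 0.162). It passed with the replicate number as a block (0.0473), although no source used here says that a number marks the same infection across conditions. Over baseline the median was 1.24 ± 1.19 and the gene was enriched, with an adjusted p of 0.00275 (0.114 with the block). In N87 the level was 0.00 and 0.20 at baseline, -0.10 and 0.12 under vehicle, and -0.40 and 0.03 with lapatinib, so the conditions overlapped, and the median over vehicle was 0.00 ± 0.73.

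The lapatinib libraries serve in both OE19 comparisons, so the call against baseline is no second sample of the call against vehicle. At the level of single sgRNAs, 0.000817% of all sgRNAs passed against baseline in OE19, and 0 of the 60 member sgRNAs did. Before adjustment 30 of the 60 (50%) had a p under 0.05, against 19.9% of all sgRNAs, and DESeq2 called 23 (38.3%), against 7.5%. The 5 BAX sgRNAs had adjusted p-values from 0.0679 to 0.0732.

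BBC3, PMAIP1 and BID were not called with lapatinib. BBC3 (PUMA, a p53 target; chromosome 19, 47724079 to 47736023) had an OE19 median over vehicle of 0.57 ± 0.94 with an adjusted p of 0.909. Its level was -0.05 and 0.13 under vehicle and 0.53 and 0.52 with lapatinib, and HGLibA_04196 was the sgRNA that passed, at 376 and 434 against 1578 and 1060. PMAIP1 (NOXA, which disables MCL1; chromosome 18, 57567228 to 57571537) had medians of -0.31 ± 1.05 in OE19 and -0.90 ± 1.42 in N87. Its N87 level was 0.40 and 0.40 under vehicle and -0.92 and -0.64 with lapatinib. There 3 of its sgRNAs were lower and 1 higher, where 29.9% of all sgRNAs were lower and 31.2% higher. BID, on chromosome 22 (18216904 to 18257536), links caspase-8 to mitochondria. Its OE19 median over vehicle was 0.45 ± 0.22, with all 6 sgRNAs above 0 and none past the test. Over baseline the OE19 median was -0.01 ± 0.25, and from baseline to vehicle it was -0.31 ± 0.36. In N87 the BID median over vehicle was -0.51 ± 1.00.

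BCL2L1 (chromosome 20, 30252255 to 30311792) changed in the opposite direction to BAX in OE19. Its level was 0.18 and 0.31 at baseline, -0.12 and -0.01 under vehicle, and -1.31 and -1.05 with lapatinib. Both lapatinib libraries lay below the 4 others. The largest losses were those of the 3 guides of sub-library B. HGLibB_04300 held 130 and 152 at baseline, 115 and 85.1 under vehicle, and 12.9 and 6.21 with lapatinib, a 9.57-fold loss against vehicle (adjusted p = 0.00965). Its lapatinib values came from 5 and 4 reads, so the fold depends on the pseudocount. The ratio to vehicle was 0.105 with a pseudocount of 1 and 0.139 with 5. HGLibB_04299 held 187 and 208 under vehicle and 95.6 and 54.3 with lapatinib (adjusted p = 0.0450). HGLibB_04301 held 71.5 and 82.8 against 15.5 and 46.6, the latter from 6 and 30 reads, and did not pass (0.294). The sub-library A guides had log2 changes from -0.60 to -0.02.

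The BCL2L1 median over vehicle was -0.92 ± 1.26, the 51st lowest of 20913, with an adjusted p for depletion of 0.251. Its p was the second lowest of all genes for depletion, yet no gene passed. It passed without lapatinib replicate 1 (0.00779, median -0.44) and with scaling to total counts (0.0301). Against baseline the median was -1.03 ± 1.60 and the gene was depleted with an adjusted p of 0.0194, where 0.129% of genes were. That call held without any single library, with adjusted p from 0.000726 to 0.0166, and of 13 alternatives it was lost in 1, with counts summed per gene (0.0906). In N87 the change had the other sign, and the difference between lines did not pass the gene test. It passed with counts summed per gene (adjusted p = 0.00355), a setting that called 19.8% of all genes lower in OE19. The level was -0.37 and -0.49 at baseline, -0.69 and -1.06 under vehicle, and -0.08 and -0.43 with lapatinib. The N87 median over vehicle was 0.70 ± 0.78, with 3 sgRNAs higher, where 31.2% of all sgRNAs were, and an adjusted p of 1. The sub-library A guides changed 1.14- to 3.03-fold there. Of the 3 guides of sub-library B, HGLibB_04299 changed 0.97-fold, HGLibB_04300 1.39-fold and HGLibB_04301 3.62-fold.

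The same 3 guides already separated the lines at baseline, a comparison added after the data were seen. HGLibB_04300 held 49.6 and 45.4 in N87 and 130 and 152 in OE19. HGLibB_04301 held 64.3 and 40.5 against 110 and 127, and HGLibB_04299 held 159 and 125 against 235 and 270. None of these ranges overlap. Their log2 differences, OE19 against N87, were 1.56, 1.16 and 0.82 (adjusted p from 4.68e-08 to 0.000177), and the gene median was 0.65 ± 0.67 with an adjusted p of 0.000225. In this comparison 1.78% of genes and 0.922% of sgRNAs were higher in OE19, and BCL2L1 was the only member called. Leaving out any library kept the call (adjusted p from 0.000131 to 0.000860). Over all sgRNAs the median was -0.04 in sub-library A and 0.03 in sub-library B, whose 95th percentile was 0.40. No pool from before infection was analysed here, so whether the N87 level had fallen or the OE19 level had risen was not tested.

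**Figure D4:**
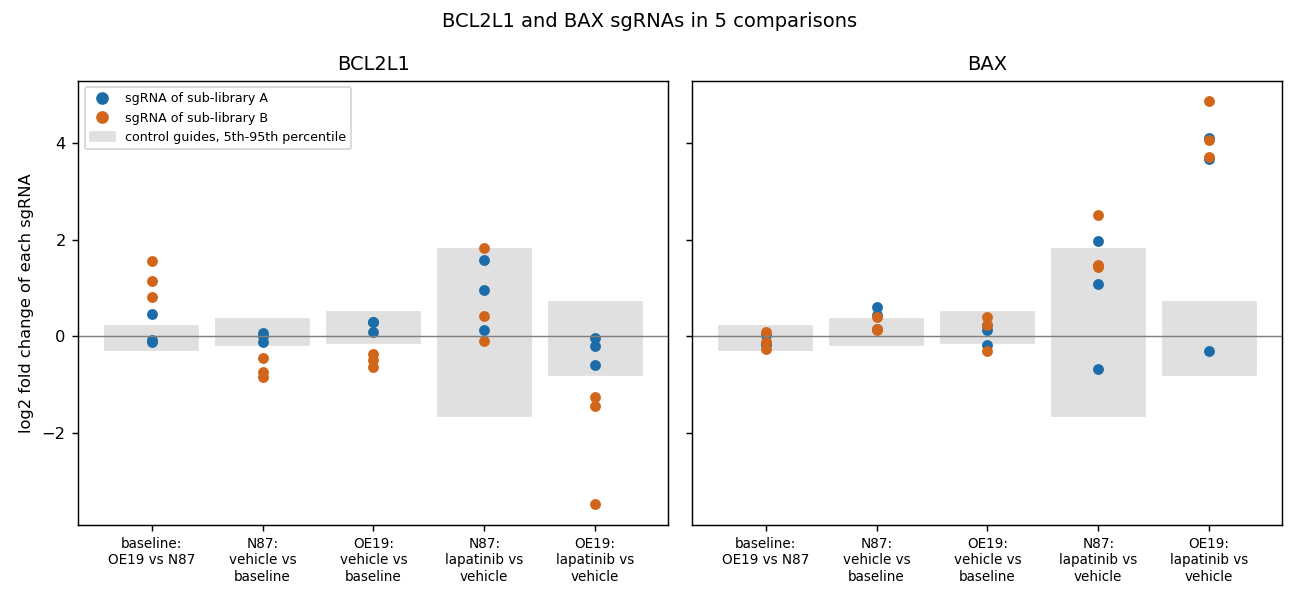
Log2 fold change of each BCL2L1 (left) and BAX (right) sgRNA in 5 comparisons, coloured by sub-library, over the 5th to 95th percentile of the control guides in grey. The 3 sub-library B guides of BCL2L1 lie at 0.82 to 1.56 between the baselines and at -3.48 to -1.24 with lapatinib in OE19, while the BAX guides lie at -0.25 to 0.10 between the baselines, at 0.14 to 0.62 in N87 drug-free growth and at -0.30 to 0.40 in OE19 drug-free growth.

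During drug-free growth these guides had negative changes in both lines. From baseline to vehicle HGLibB_04300 changed by -0.84 in N87 and -0.49 in OE19, HGLibB_04301 by -0.74 and -0.63, and HGLibB_04299 by -0.44 and -0.37. Both vehicle libraries lay below both baseline libraries for each guide in each line, but no guide passed the adjusted test. The 6 BCL2L1 changes from baseline to vehicle had r = 0.936 between the lines. Those with lapatinib in OE19 against vehicle had r = -0.912 with the baseline difference, in each case between comparisons that share no library. They describe 6 guides to 1 gene and were not tested.

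MCL1 (chromosome 1, 150533371 to 150552214) was not called in any comparison. In OE19 its level was -0.28 and -0.06 at baseline, -0.63 and -0.27 under vehicle, and -1.46 and -0.82 with lapatinib. The lapatinib libraries were the lowest but replicate 2 lay close to the lower vehicle library. The median was -0.39 ± 0.76 over vehicle and -0.69 ± 0.68 over baseline, with adjusted p for depletion of 1 and 0.481. In N87 the level was -0.52 and -0.46 under vehicle and -0.16 and -0.37 with lapatinib, and the median over vehicle was 0.87 ± 1.65. BCL2 (chromosome 18, 60790579 to 60987361) had levels from 0.31 to 0.54 in all 12 libraries, the narrowest range of the 10 genes, and medians over vehicle of 0.15 ± 0.27 in OE19 and 0.22 ± 1.03 in N87.

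The lapatinib effect was then compared between lines in a single fit. No member was called, where 4 of 20889 genes (0.0191%) were. BAX and BMF had an unadjusted p for a higher change in OE19 under 0.05, as had 1084 of the 20889 genes. The largest positive difference, OE19 minus N87, was that of BAX, at 2.36 ± 0.85 with an adjusted p of 0.734, and the largest negative was that of BCL2L1, at -1.74 ± 1.34 with an adjusted p of 1. At the level of sgRNAs 26 of 60 (43.3%) had a higher change in OE19 and 13 (21.7%) a lower one, against 20.7% and 20.5% of all sgRNAs. The BAX difference depended on the fit, and it passed under 6 of 17 alternatives. With all libraries kept it passed on DESeq2 p-values (0.00124), with total counts only (0.00388) and with counts summed per gene (0.00836). It also passed without the trend of dispersion on abundance (0.0236). The remaining passes came without 1 of the OE19 lapatinib libraries. Under the other alternatives that kept all libraries the adjusted p ran up to 0.905.

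From baseline to vehicle no member was called in either line, where 2.4% of genes passed in N87 and 1.53% in OE19, and where 0.0399% and 0.904% of all sgRNAs did. Before adjustment 3 of the 10 members had a p under 0.05 in N87 and 1 in OE19, where 12.1% and 11.9% of all genes did, and DESeq2 p-values called 0 members in each. The N87 medians of BAX and BID were 0.28 ± 0.20 and 0.24 ± 0.16, with adjusted p for enrichment of 0.0866 and 0.183. With the replicate number as a block both passed (0.00216 and 0.0294). Both rest on vehicle replicate 2. Without it the medians were -0.01 and -0.07, and without vehicle replicate 1 both genes passed (0.00148 and 0.00566). BAX also passed without baseline replicate 2 (0.0149). In OE19 BID was at -0.31 ± 0.36 with an adjusted p for depletion of 0.248, and HGLibB_04497 was the only member sgRNA that passed, at 419 and 317 at baseline and 193 and 216 under vehicle. The difference between lines, also added after the data were seen, was -0.49 ± 0.34 for BID (OE19 minus N87), with an adjusted p for depletion of 0.0503 where 0.23% of genes passed. It passed under 10 of 17 alternatives, DESeq2, the 3 other scalings and the replicate block among them, and ran from 0.000791 without N87 vehicle replicate 1 to 0.489 without N87 vehicle replicate 2.

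Grouped by role, the OE19 medians over vehicle were 0.57 for the 5 BH3-only genes, 4 of them above 0, and -0.39 for the 3 guardians, 1 of them above 0. The effectors lay apart, with BAX at 3.90 and BAK1 at 0.14, so their median of 2.02 describes neither. Over all 20913 genes the median was -0.02 and 46.9% were above 0. Against baseline in OE19 the BH3-only median was 0.59, with 3 of the 5 above 0. The guardian median there was -0.69, with 1 above 0, and 47.3% of all genes were above 0. In N87 the medians over vehicle were 0.17 for the effectors, with BAX at 1.46 and BAK1 at -1.12. They were 0.00 for the BH3-only genes and 0.70 for the guardians, against -0.09 over all genes. Of the 11 other family genes (BOK, BAD, BIK, HRK, BCL2L2, BCL2A1 and BCL2L10 among them) none was called with lapatinib against vehicle in either line, and their median was -0.09 in OE19 and -0.39 in N87. The same held for 11 partners and regulators (0.02 and 0.35). The list genes named for their OE19 medians over vehicle were DYNLL1, HTRA2 and CYCS. DYNLL1, a dynein light chain that tethers BMF and BIM, was at 1.16 ± 0.49 over 5 sgRNAs (adjusted p = 0.0725). HTRA2, a mitochondrial protease that counters XIAP, was at 0.97 ± 1.66 (0.384), and CYCS, cytochrome c, at 0.67 ± 0.83 (1). From baseline to vehicle in OE19 these genes were at -0.45, -0.38 and -0.61. With lapatinib over baseline they were at 0.88, 0.49 and -0.20. Those named in N87 were BCL2L12 at -1.81 ± 1.61, BCL2L15 at -1.69 ± 1.66 and CASP8, the initiator that cleaves BID, at 1.62 ± 1.83. Their adjusted p ran from 0.912 to 0.998. HUWE1, a ubiquitin ligase of MCL1, was the list gene that passed in drug-free growth, with -0.59 ± 0.41 in N87 (adjusted p for depletion 0.00110) and -0.95 ± 0.84 in OE19 (0.0222).

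Across the 12 libraries, the genes whose level followed that of BAX most closely were NF1 (Pearson's r = 0.985), ART4 (0.983), SEC14L1 (0.981), CSK (0.980) and hsa-mir-6082 (0.979). For BCL2L1 they were ZFP112 (0.921), AMY1C (0.920), BRK1 and TIPARP (both 0.879) and CHRAC1 (0.870). For MCL1 they were TMEM30A (0.956), ERGIC2 (0.938), ARL3 (0.936), GCM2 (0.935) and TMEM192 (0.935). These points share their libraries and the lapatinib conditions set most of the range, so r is a description of likeness.

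The OE19 calls against vehicle rest on the spread between 2 libraries a side. The BAX call was lost without vehicle replicate 1 (adjusted p = 0.868) or vehicle replicate 2 (0.849), although its median stayed at 3.83 and 3.88. The lone vehicle library is then assumed to vary like the lapatinib pair. Without either lapatinib library it held (1.37e-07 and 9.87e-07). The BMF call was lost without any 1 of the 4 libraries, with adjusted p from 0.191 to 0.423 and medians from 1.32 to 1.62. With counts summed per gene, which called 0.043% of all genes, BAX was at 0.0772 and BMF at 0.0543. The BAX and BMF calls over baseline were likewise lost without either baseline library, the BMF and BCL2L11 calls without either lapatinib library, and that of BCL2L11 without either baseline library.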

How the data were processed

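sgRNA inserts were amplified from genomic DNA and sequenced in 12 libraries. The authors trimmed the reads, mapped them to the designed sgRNA library with Bowtie and deposited raw read counts per sgRNA (the submitters' notes name Bowtie2 2.3.2, FastQC 0.11.5 and MAGeCK 0.5.6). Replicates were not pooled. PCR reads without molecular identifiers are not independent molecules. Library totals ran from 13105805 to 33743599 counts, and the table holds 2000 control entries.

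Groups came from the sample titles. The 10 genes, the gene lists and the comparisons were chosen with earlier results of these data known. Each comparison was fitted on the whole table with edgeR 4.0.16 in R 4.3.3 (quasi-likelihood F test, TMM factors, at least 40 counts over 4 libraries or 80 over 8), with Benjamini-Hochberg adjustment over all sgRNAs. One-sided p-values of at least 2 sgRNAs were combined per gene by robust rank aggregation over ranks below 0.05, after the MAGeCK scheme, and adjusted over all genes in each direction. Folds are of mean normalized counts with a pseudocount of 1. With 2 libraries a side an exact permutation test of a single value cannot fall below p = 0.333, so none was run. The steps were tested on simulated data. All guides of a changed gene were moved by the same factor, and no other guide was moved. In OE19 lapatinib against vehicle, with 20891 genes, 100% of genes raised 2-fold were found. Of those lowered to 0.5-fold 94% were found, with 2 unchanged genes called. In N87 these shares were 100% and 92%, with 1 unchanged gene called. Guides of a real gene differ, and many more sgRNAs moved in N87, so these shares do not carry over to the members. Named genes were the 10 members, list genes that passed or had the 3 largest medians per line with lapatinib, and the 5 genes most like BAX, BCL2L1 and MCL1. Alternatives were DESeq2 1.42.0, other scalings, filters, dispersion and rank limits, summed counts, a replicate block and each library left out. Replicates shared a number within a line, but deviations of same-numbered libraries correlated at 0.03 to 0.24, with 5 of 6 pairs under 0.1, so the block stayed an alternative, and whether a number marks 1 infection is not given in the sources used here. Gene positions are from GENCODE lifted to GRCh37. A further list of genes that act after BAX is not reported here, apart from those of its members named by the rule.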

Additional observations from a re-analysis of the deposited data

Results flagged for a closer look

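For 4 genes the lapatinib libraries of N87 and OE19 all lay on opposite sides of their vehicle mean, taken relative to the control guides. The gene test did not call this difference between lines (adjusted p from 0.990 to 1 in each direction). With counts summed per gene these 4 genes passed, in a fit that called 24.9% of all genes higher and 19.8% lower in OE19. Their adjusted p there was 0.000779 for BAK1, 0.0282 for BID, 0.00355 for BCL2L1 and 0.000578 for MCL1. BAK1 had N87 values of -1.66 and -1.16 and OE19 values of 0.27 and 0.27, and the fitted difference, OE19 minus N87, was 1.48. BID had N87 values of -0.90 and -0.66 and OE19 values of 0.46 and 0.55, with a fitted difference of 1.14. For BCL2L1 the N87 values were 0.61 and 0.22 and those of OE19 were -1.07 and -0.28, with a fitted difference of -1.74. For MCL1 they were 0.75 and 0.51 against -0.30 and -0.20, with a fitted difference of -0.89. Taken against the baseline mean, the OE19 values were -0.05 and -0.05 for BAK1 and -2.83e-05 and -0.06 for BID. The N87 values were then -1.63 and -1.07 for BAK1 and -0.92 and -0.44 for BID, on the same side. For BCL2L1 and MCL1 the sides stayed opposite against baseline.

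From baseline to vehicle the libraries of the lines likewise lay on opposite sides for BBC3 and PMAIP1, with small values. BBC3 had 0.03 and 0.06 in N87 and -0.22 and -0.02 in OE19, and the fitted difference of sgRNA changes, not set against the control guides, was 0.0193. For PMAIP1 they were 0.08 and 0.05 against -0.10 and -0.23, with a fitted difference of -0.0762. Doses differ between the lines (0.5 and 1 µM), and the cause of these differences was not tested.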

How the results depend on the processing

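Of the counts of members called, 275 alternative values stayed within 1.5 times of the reported count and 61 did not. Counts of 0 that stayed 0 are among the 275, so that number is no measure of stability. Of the single-gene adjusted p-values, 152 kept their direction and side of the threshold, 27 passed newly, 23 no longer passed and 2 turned direction. The cause of these changes was not tested. Apart from those on summed counts, the counts of members in this section have no share over all genes or sgRNAs beside them. They describe the settings and are no result about the members. With counts summed per gene, 5 members were enriched and 3 depleted in N87 against vehicle (32.3% and 32.2% of all genes), 6 and 2 against baseline (35.1% and 35.6%), and 6 had a higher and 2 a lower change in OE19 in the fit of both lines (24.9% and 19.8%). In OE19 that setting gave 0 enriched against vehicle, 0 enriched and 0 depleted against baseline, and 1 depleted in drug-free growth (5.95% of all genes). With scaling to total counts, 13 sgRNAs were higher and 25 lower in N87 against vehicle, 8 sgRNAs were higher and 1 gene depleted in OE19 against vehicle, and 1 gene passed between the lines. DESeq2 and a fit without the abundance trend also gave 1 gene between the lines. TMM from control guides gave 1 sgRNA lower in OE19 against vehicle and 2 in drug-free growth, and the fit without the trend gave 1 and 0. For the line difference in drug-free growth, DESeq2, median-of-ratios scaling, TMM from control guides, total counts and the replicate block each gave 1 depleted gene.

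With the replicate number as a block, 2 genes were enriched and 5 sgRNAs higher in N87 drug-free growth (BAX 0.00216, BID 0.0294), 2 sgRNAs were lower in OE19 drug-free growth, BCL2L11 passed against vehicle in OE19 (0.0473) and was lost against baseline (0.114). Deviations of same-numbered libraries correlated at 0.238 for N87 vehicle and baseline and at 0.0323 to 0.0746 for the 5 other pairs of conditions, and whether a number marks the same infection was not settled. The baselines of the lines have no pairing.

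Without 1 library at a time, N87 against vehicle had 7 to 18 sgRNAs lower. N87 drug-free growth had 0 to 2 genes enriched, 0 to 6 sgRNAs higher and 0 to 1 lower, and BAX and BID ran from adjusted p 0.00148 to 0.936 and 0.00566 to 1, with the direction turned without vehicle replicate 2. OE19 against vehicle had 0 to 1 genes enriched, 0 to 1 depleted, 0 to 19 sgRNAs higher and 0 to 5 lower. OE19 drug-free growth had 0 to 1 genes depleted, 0 to 6 sgRNAs higher and 0 to 6 lower. OE19 against baseline had 0 to 1 enriched, the fit of both lines 0 to 1, and the drug-free line difference 0 to 1. A lone library was assumed to vary like the other group. The scaling moved the median of all sgRNAs with lapatinib from -0.07 to -0.59 in N87 and from -0.02 to -0.46 in OE19 (total counts), and turned the sign of BCL2L11, BMF and BCL2 in N87 and of BAK1 and BCL2 in OE19. Guides of few reads limit what can be seen of losses, such as HGLibB_29557 of MCL1, with normalized counts of 0 and 10.9 in OE19 lapatinib.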
